A study of Mus musculus with 6 samples.

Results

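The carboxylesterase cluster genes Ces1d, Ces1e, Ces1f, Ces1g, Ces2e and Ces2g were followed by name through the deposited table, which holds 54532 genes and 6 libraries. All 6 genes were found in it. They were picked because of how they behaved in this same contrast of baicalin with DMSO, so their values below are a description and carry no test. The other 14 carboxylesterase genes of the table, from a separate list, are set beside them.

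The libraries came from wild-type cells of the mouse fibroblast line 3T3, labelled as adipocytes. The 3 control libraries came from cells given DMSO, the solvent, and the 3 treated libraries from cells given 200 µM baicalin, a plant flavone that carries a glucuronic acid. The subline, the differentiation procedure and the length of treatment were not given in the sources used here. No label ties the 3 libraries of a group to different cultures, and the p-values therefore measure the spread between these libraries, which may be technical. Totals ran from 16730594 to 18326874 reads, and 3 reads in a library correspond to at most 0.181 CPM (reads scaled to a common library total with TMM factors), a floor that covers counting error only.

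Carboxylesterases are serine hydrolases of the endoplasmic reticulum that cleave esters, amides and thioesters. They act on drugs and other foreign compounds, and on body lipids such as triglycerides, cholesteryl esters and retinyl esters. Mice carry many more copies than humans, arranged in tandem, and the family is best known from liver and intestine. In fat cells Ces1d and Ces1f are known as hydrolases of stored triglyceride.

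All 20 carboxylesterase genes lie on chromosome 8 in 2 tandem groups, by the GENCODE M21 annotation of the assembly that mm10 names. The Ces1 group holds 9 genes, Ces5a included, between 93020214 and 93535830, all on the minus strand. The Ces2 group, with Ces3a, Ces3b and Ces4a, holds 11 genes between 104734003 and 105150109, all on the plus strand. The groups are 11.2 Mb apart. Ces1f and Ces1g are next to each other with 22.6 kb between them, as are Ces1d and Ces1e with 3.38 kb.

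How alike the genes are bears on how reads can be assigned to them. The following stretches of 45 bases, read 5′ to 3′ from the GENCODE M21 transcripts, are centred on the codon of the catalytic serine, the residue that attacks the ester bond. Capitals mark bases that differ from Ces1g.
Ces1g: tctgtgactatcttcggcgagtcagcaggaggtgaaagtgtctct
Ces1a: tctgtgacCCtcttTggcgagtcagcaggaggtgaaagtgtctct
Ces1d: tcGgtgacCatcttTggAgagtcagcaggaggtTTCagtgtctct
Ces1e: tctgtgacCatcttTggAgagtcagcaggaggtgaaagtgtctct
Ces1f: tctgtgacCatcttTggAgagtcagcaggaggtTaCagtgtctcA
Ces2e: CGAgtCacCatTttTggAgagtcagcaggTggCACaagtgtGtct
Ces2g: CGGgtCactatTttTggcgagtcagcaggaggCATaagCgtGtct

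The serine codon was the same in all 7 genes. Over the 45 bases there were 3 to 7 differences from Ces1g inside the Ces1 group. The Ces2 genes differed more, at 13 bases in Ces2e and 11 in Ces2g. Over the whole open reading frame the divergence was larger. Ces1g shared 77.4% of its aligned bases with Ces1a, 81.6% with Ces1d, 74.6% with Ces1f and 63.7% with Ces2g. Of all 50-base words in the Ces1g transcript, 1.7% also occur in a transcript of another gene. The share was 1.3% for Ces1d, 1.6% for Ces1f, 3.2% for Ces1e, 3.4% for Ces2e, 4.0% for Ces2g and 0.1% for Ces1a. The counting rule for reads that match several genes was not given in the sources used here. How reads from these shared words were placed is therefore not known, and the values of all these copies carry that uncertainty.

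Ces1g and Ces1f were higher with baicalin, Ces2g was moderately higher, Ces1d was lower, and Ces1e and Ces2e were at the limit of detection in both groups. Of the 6 genes, 4 had enough reads for the fit over all genes (edgeR's quasi-likelihood test, Benjamini-Hochberg adjusted p under 0.05), and 3 of these 4 passed as higher and 1 as lower. Among all 13728 genes in that fit 33.6% passed as higher, 34.1% as lower and 67.7% in either direction. The genes were picked on this contrast, so nothing is read from their count. Since whole cultures were sequenced, fewer cells of a type and less RNA per cell cannot be told apart.

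Ces1g, known as esterase-x and as a lipid-regulating enzyme of the liver, showed the widest difference. The DMSO libraries held 24, 13 and 23 of its reads, the baicalin libraries 764, 717 and 734. Scaled by TMM factors these were 1.30, 0.744 and 1.26 CPM against 46.0, 40.5 and 42.8 CPM. The groups lay far apart, and libraries within a group differed little. The fold change was 38.7 (log2 fold change 5.27, SE 0.13), the fourth highest fitted value of the 13728 genes. Its level in DMSO rests on few reads. On the log2(FPKM + 1) scale, which damps changes of low genes, the log2 difference was 3.73.

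Ces1f, the neighbour of Ces1g, stood at 8.61, 9.09 and 7.89 CPM in DMSO and at 23.8, 24.8 and 27.9 CPM in baicalin. Every baicalin library was above every DMSO library. Its fold change was 2.99 (log2 fold change 1.58, SE 0.10), well below that of Ces1g although the genes adjoin.

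Ces1d, also called triacylglycerol hydrolase, went the other way. Its reads numbered 58, 46 and 69 without baicalin and 10, 22 and 18 with it, or 3.14, 2.63 and 3.78 CPM against 0.602, 1.24 and 1.05 CPM. The groups did not overlap, and the baicalin libraries held few reads. The gene was 3.27-fold lower in baicalin (log2 fold change -1.71, SE 0.28), the widest error of the 4 fitted genes. On the log2(FPKM + 1) scale the difference was -0.74.

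Ces1e, known as egasyn, the protein that holds β-glucuronidase in the endoplasmic reticulum, was hit by 1, 1 and 3 reads without baicalin and by 0, 0 and 2 with it. No library exceeded the 3-read floor, so a fold is not given.

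In the Ces2 group, Ces2g stood at 14.4, 16.5 and 13.1 CPM in DMSO and at 27.7, 24.4 and 19.9 CPM in baicalin. The groups did not overlap, and the nearest libraries stood at 16.5 and 19.9 CPM. Its fold change was 1.64 (log2 fold change 0.71, SE 0.11). Ces2e was hit by 1, 2 and 4 reads without baicalin and by 2, 0 and 0 with it. Both of its groups were near the floor of 3 reads per library, and a difference was not detectable at this depth.

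For the 4 fitted genes each baicalin library thus stood on the same side of every DMSO library, which also held for 70.2% of all genes in the fit. Their median log2 fold change was 1.15, beside 0.00 over all genes. This median averages Ces1f and Ces2g and says little of genes that range from -1.71 to 5.27.

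**Figure D1:**
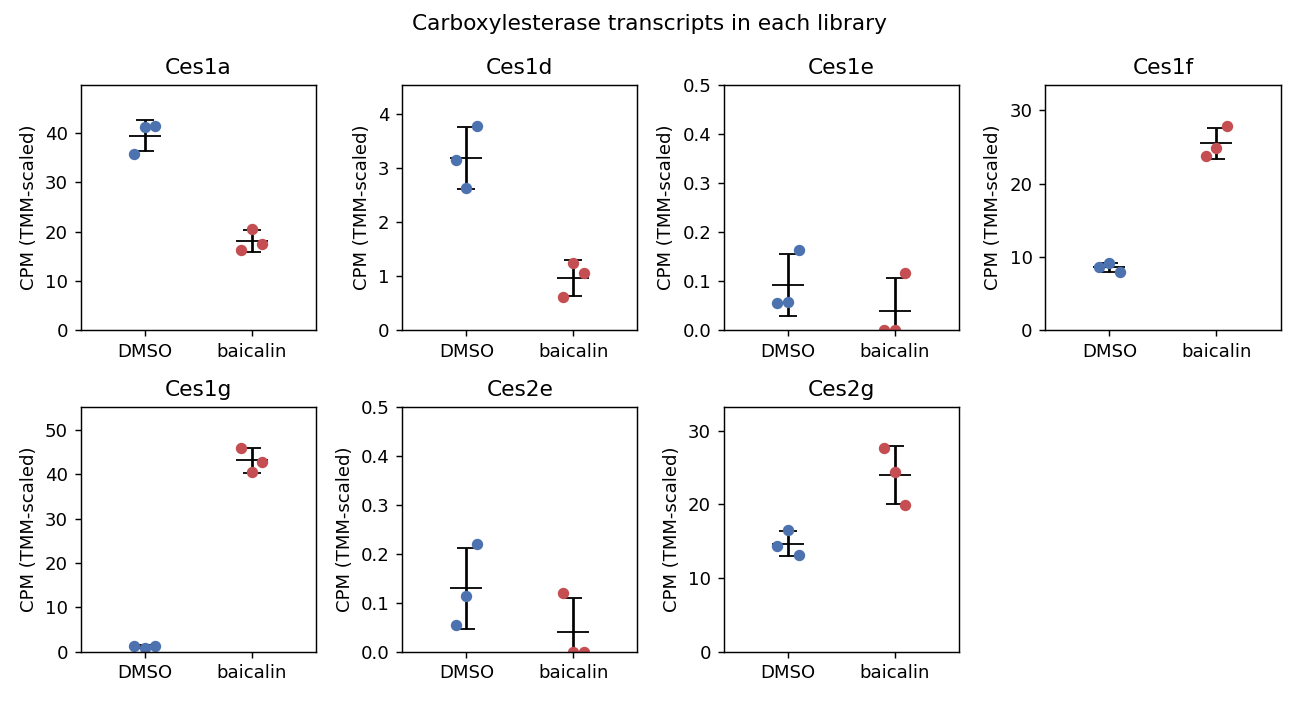
Reads of 7 carboxylesterase genes in each library, in CPM after TMM scaling, each panel on its own linear axis from 0. Points are libraries, the dash is the group mean and the bar 1 SD (n = 3). Ces1g goes from about 1 CPM to 40.5 CPM and more, Ces1a and Ces1d go down, and Ces1e and Ces2e stay under 0.5 CPM.

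Among the 14 other carboxylesterase genes only Ces1a had enough reads to test. It stood at 35.8, 41.2 and 41.5 CPM in DMSO and at 16.2, 20.5 and 17.4 CPM in baicalin. The groups did not overlap, and Ces1a fell 2.18-fold (log2 fold change -1.13, SE 0.08, edgeR adjusted p = 1.19e-16), lower in 3 of 3 baicalin libraries. A non-coding gene on the opposite strand, Gm45463, overlaps its exons over 407 bp. Gm45463 had 112 reads in all against 3068 for Ces1a, and the strand setting of the counts is not known. Of the remaining 13 genes, 8 had no read in any library. These were Ces1c, which encodes the esterase of mouse plasma, Ces2a, Ces2b, Ces2c, Ces2d-ps, Ces2h, Ces3a and Ces3b. Ces1h had 3 reads in DMSO and 12 in baicalin, Ces2f 9 and 10, and Ces1b, Ces4a and Ces5a at most 3 in all. Within the Ces1 group the genes that were lower, Ces1a and Ces1d, and those that were higher, Ces1f and Ces1g, followed each other in that order along the chromosome.

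Because FPKM values are divided by gene length, they allow levels of different genes to be ranked within a library. In DMSO the order of mean FPKM was Ces1a (17.7 ± 1.41), Ces2g (4.13 ± 0.491), Ces1f (2.62 ± 0.188), Ces1d (1.35 ± 0.244) and Ces1g (0.465 ± 0.131; SD, n = 3 each). No library of one of these genes overlapped with those of the next. With baicalin Ces1g led at 18.4 ± 1.27 FPKM, followed by Ces1a (8.16 ± 0.959), Ces1f (7.90 ± 0.649), Ces2g (6.84 ± 1.14) and Ces1d (0.414 ± 0.139). Here Ces1a and Ces1f overlapped, as did Ces1f and Ces2g, so that their order is not larger than the spread between libraries.

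Expressed as a share of the summed FPKM of all 20 genes, Ces1a made up 64.8%, 67.2% and 68.7% without baicalin and 17.2%, 22.1% and 19.1% with it. Ces1g went from 2.22%, 1.14% and 1.97% to 45.8%, 41.1% and 44.4%. The first place in the family thus passed from Ces1a to Ces1g in every library. Ces1f held 9.95% ± 0.901 in DMSO and 18.9% ± 2.01 in baicalin. Ces2g held 15.7% ± 1.81 and 16.3% ± 2.36, a difference smaller than the spread. The family sum was 26.4 ± 1.44 FPKM in DMSO and 41.9 ± 1.01 FPKM in baicalin (SD, n = 3 each), a ratio of 1.59. Most of the baicalin sum came from genes picked on the contrast, and most of the DMSO sum from Ces1a. The sums were not tested.

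**Figure D2:**
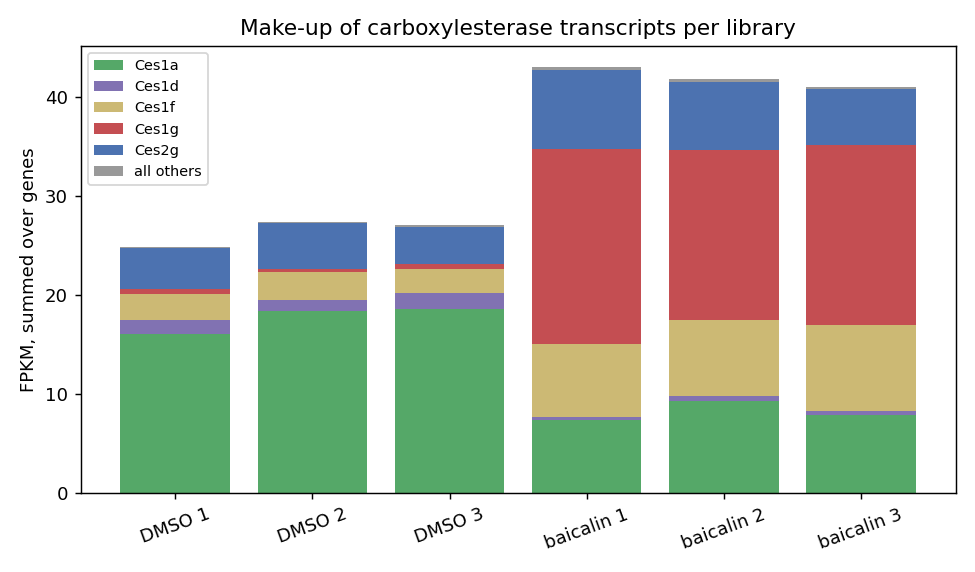
FPKM of the carboxylesterase genes stacked for each of the 6 libraries, on a linear axis from 0. The summed height goes from 24.8 to 27.5 in DMSO and from 41.0 to 43.0 in baicalin. Ces1a is the largest segment in DMSO and Ces1g in baicalin.

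The windows from 250 bases before to 50 after the start site were taken from RefSeq (GRCm38.p6). They cover 15 of the 20 genes, Ces1b with alternative windows, and 4 of the 6 followed here. The windows of Ces1g, the highest gene with baicalin, and Ces1a, the highest in DMSO, are shown 5′ to 3′ on the minus strand. Capitals mark matches on either strand to TGANNNNGC, a loose pattern for the core of the antioxidant response element that NRF2 binds. Its N positions accept any base.
Ces1g, chr8:93337160-93337459: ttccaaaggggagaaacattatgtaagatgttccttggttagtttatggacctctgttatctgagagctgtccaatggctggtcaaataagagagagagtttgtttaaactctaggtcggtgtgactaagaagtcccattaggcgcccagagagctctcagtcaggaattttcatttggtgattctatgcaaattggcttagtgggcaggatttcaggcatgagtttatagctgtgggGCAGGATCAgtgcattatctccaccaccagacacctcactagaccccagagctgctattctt
Ces1a, chr8:93048143-93048442: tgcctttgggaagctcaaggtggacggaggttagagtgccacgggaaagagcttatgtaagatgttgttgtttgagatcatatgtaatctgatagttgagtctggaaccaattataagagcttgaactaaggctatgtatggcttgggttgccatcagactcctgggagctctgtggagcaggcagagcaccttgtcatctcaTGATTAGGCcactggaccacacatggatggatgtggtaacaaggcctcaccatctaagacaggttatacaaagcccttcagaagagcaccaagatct

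Their aligned bases were 70.0% identical, against 55.4% to 61.1% for the other pairs among Ces1a, Ces1e, Ces1g, Ces2e and Ces2g. The TGANNNNGC pattern occurred in 5 of the 15 carboxylesterase genes with a window (33.3%, counted by gene). It occurred in 41.3% of all 32851 windows, counted by window over 27025 gene symbols. In Ces1g the match starts at position -12 on the minus strand of the window, and in Ces1a at -47. The gene that was higher and the gene that fell thus both hold 1 match. The core GCGTG of the element bound by the aryl hydrocarbon receptor was present in 1 of the 15, that of Ces2h, and in 32.4% of all windows. The direct repeat 1 element of the peroxisome proliferator receptors (0.0396% of all windows) and TGATGNAAT, an element of C/EBP and ATF factors (0.965%), matched none of the 15. Both strands were searched, and no 2 of these motifs overlapped in the carboxylesterase windows. A match is a string of letters, and binding was not measured.

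Genes that lie within 1 Mb of a followed gene and are no carboxylesterases were read from the same fit. Of 68 tested, 17 were higher and 30 lower (69.1%, against 67.7% of all tested genes). Their median log2 fold change was -0.12. With library-size scaling alone 12 were higher and 37 lower, and on the log2(FPKM + 1) scale with low genes removed 17 and 17. The share over both groups together was near that of all genes. Around the Ces1 group 7 were higher and 9 lower of 18 (88.9%), and around the Ces2 group 10 and 21 of 50 (62.0%). Whether the 2 groups differ in this was not tested.

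On the Ces1a side of the Ces1 group, 7 of the 9 tested genes fell and 1 rose, where 34.1% of all tested genes were lower. Whether the sides of the group differ was not tested. Capns2, a small subunit of calpain proteases 117.8 kb from the group, had 210, 200 and 192 reads without baicalin and 15, 18 and 28 with it, a 9.33-fold fall (edgeR adjusted p = 2.17e-21). Lpcat2, an acyltransferase that remakes phosphatidylcholine and makes platelet-activating factor, stood at 54.0, 59.8 and 51.0 CPM in DMSO and at 9.75, 11.4 and 12.3 CPM in baicalin. It fell 4.93-fold (adjusted p = 8e-30), and the groups did not overlap. Capns2 lies within the bounds of Lpcat2 on the same strand, and their exons do not overlap. The gelatinase gene Mmp2 fell 2.12-fold from 8845 ± 250.4 CPM (SD, n = 3, adjusted p = 1.9e-30). Slc6a2, the noradrenaline transporter gene between these and Ces1a, rose (log2 fold change 0.42, SE 0.08). The nearest tested gene on that side, Gm45463, fell from 1.57 ± 0.0896 to 0.531 ± 0.414 CPM, with 12, 1 and 14 reads in baicalin. The long non-coding genes Gm21817 (-2.76) and Gm45472 (-2.24) fell as well. Their baicalin libraries held 2, 3 and 1 reads and 4, 6 and 3 reads, at or near the floor, so both sizes are imprecise. Exons of Gm45472 overlap those of Lpcat2 over 287 bp on the opposite strand, with 79 reads against 3548.

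On the Ces1g side the nearest tested gene, Gnao1, a G protein subunit, fell slightly (log2 fold change -0.24, SE 0.04). Further out the metallothionein gene Mt2 rose 3.19-fold (adjusted p = 1.45e-14). No tested gene on that side within the window fell by 2-fold. Around the Ces2 group, Hsf4, a heat shock factor, fell most, with 52, 57 and 74 reads without baicalin and 5, 6 and 2 with it (log2 fold change -3.70, SE 0.37). Cmtm4 (-1.26) and Cklf (-1.57), of a chemokine-like family of membrane proteins, also fell. So did the antisense gene Gm38250 (-1.85), with 2, 7 and 5 reads in baicalin. Falls of Hsd11b2 (-1.34, edgeR adjusted p = 0.0194) and Ctrl (-1.27, adjusted p = 0.0261) rest on under 1 CPM and were lost with DESeq2 (adjusted p = 0.134 and 0.156) and without a low-count filter (0.062 and 0.0901). On the log2(FPKM + 1) scale without a filter Hsd11b2 was lost as well (0.0885). Hsd11b2 was also lost without DMSO replicate 1 (0.0947) or baicalin replicate 1 (0.146), and Ctrl without DMSO replicate 1 (0.0885), DMSO replicate 2 (0.0639) or baicalin replicate 3 (0.165). The nearest tested genes on either side, Fam96b (0.23) and Cbfb (-0.24), had small log2 fold changes, and closer genes had too few reads to test. The rise of Fam96b was lost with DESeq2 (0.06), library-size scaling (0.30), without DMSO replicate 2 (0.0705) and without baicalin replicate 2 (0.0538), and the fall of Cbfb without DMSO replicate 2 (0.053) and on the log2(FPKM + 1) scale without a filter (0.131).

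**Figure D3:**
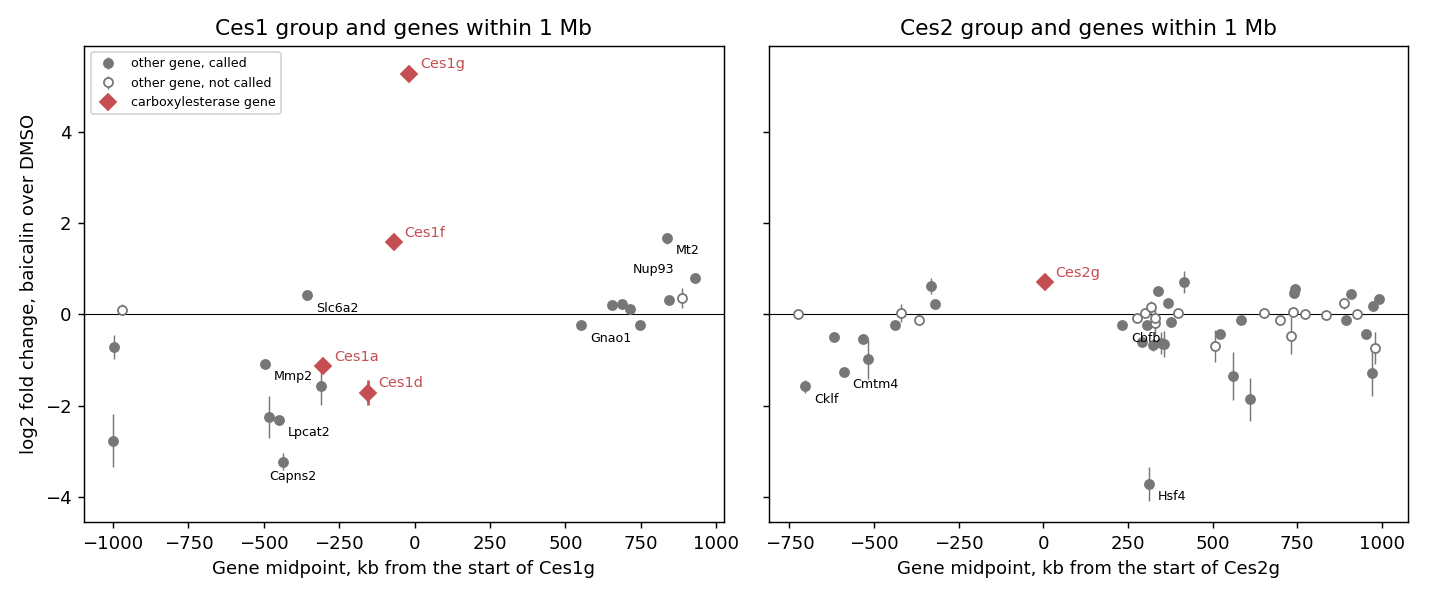
Log2 fold change of tested genes against the distance of their midpoint from the start of Ces1g (left) or Ces2g (right), in kb along the chromosome. Diamonds are carboxylesterase genes, filled circles other genes that passed the test, open circles those that did not, and bars 1 SE. Ces1f and Ces1g stand above 0, while Ces1a, Ces1d, Capns2, Lpcat2 and Mmp2 stand below it.

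Genes of a list made for neutral lipid lipases moved in both directions. The list is broader than its name and also holds phospholipases such as Pnpla6. Of its 23 genes 16 were tested, and 10 rose and 5 fell (93.8%, against 67.7% of all genes). Their median log2 fold change was 0.37. With library-size scaling 9 rose and 6 fell. Lipg, counted among the 10, passed the count filter through its baicalin reads alone. It drops out where at least 1 CPM is asked in all 3 libraries of a group. With that filter 9 rose and 5 fell of 15 tested. Lipe, the hormone-sensitive lipase (log2 fold change 0.60, SE 0.05), and Pnpla2, the adipose triglyceride lipase (0.50, SE 0.05), rose. Ces1f was higher as well, whereas Ces1d was lower. Abhd6, a monoglyceride hydrolase, rose by 0.98 and the diglyceride lipase gene Dagla by 0.63. The lysosomal lipase gene Lipa rose by 0.15, a call lost with library-size scaling (edgeR adjusted p = 0.589). Lpl, the lipoprotein lipase gene, fell by 1.56 on the log2 scale. Lipg, the endothelial lipase gene, had no read in DMSO and 46 in baicalin, at least 16.1-fold higher taking 3 counts over the 3 DMSO libraries for the floor. Pnpla6, a phospholipase, had 40.1 ± 1.57 CPM without baicalin and 36.9 ± 1.73 CPM with it (SD, n = 3 each), and did not pass (adjusted p = 0.0978), except with library-size scaling (-0.25, adjusted p = 0.00106).

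Of 23 other ester hydrolases 16 were tested, 8 rose and 3 fell (68.8%, near the 67.7% of all genes), with a median of 0.17. With library-size scaling 5 rose and 3 fell. Esd, esterase D, which also hydrolyses S-formylglutathione, stood at 120.8, 114.6 and 120.6 CPM in DMSO and at 404.0, 411.0 and 405.2 CPM in baicalin. It rose 3.43-fold (edgeR adjusted p = 1.26e-39), and its groups were far apart. Abhd11 (0.79) and Abhd2 (0.68) rose and Iah1 (-0.45) fell, while Bphl, a valacyclovir hydrolase, was at 0.09 (adjusted p = 0.417; -0.04 with library-size scaling). Exons of Iah1 overlap those of the opposite-strand gene Adam17 over 311 bp, with 15617 reads for Adam17 and 3689 for Iah1. Pafah1b2, at 0.13, lost its call with library-size scaling (adjusted p = 0.994). Aadac, the arylacetamide deacetylase of liver, and Pon1, the paraoxonase of serum, had no read.

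Genes for factors known to act on carboxylesterase genes in other tissues were measured too. Of 19 listed 13 were tested, with 7 higher and 5 lower (92.3%, against 67.7% of all genes) and a median of 0.55. Ahr, the aryl hydrocarbon receptor gene, stood at 33.5, 38.5 and 36.3 CPM in DMSO and at 79.4, 79.0 and 83.1 CPM in baicalin (log2 fold change 1.16, SE 0.06). Cebpb rose by 1.05, Ppard by 0.86, the liver X receptor gene Nr1h3 by 0.78 and Nfe2l2, which encodes NRF2, by 0.55. Pparg fell (-0.35, SE 0.10), as did the glucocorticoid receptor gene Nr3c1 (-0.21). Srebf1 rose by 0.25. It shares 109 bp of exon with Rai1 on the opposite strand (9058 reads against 7755), and Cebpb shares 312 bp with Tmem189, likewise opposite (3993 reads against 46171). The listed nuclear receptor genes ranged widely in level. Rxra, lower with baicalin, had means of 441.3 CPM in DMSO and 319.0 CPM in baicalin (log2 fold change -0.47), whereas others were near absent. Nr1i2, the pregnane X receptor gene, had 5 reads in all, and Nr1i3, the constitutive androstane receptor gene, and the bile acid receptor gene Nr1h4 had none.

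Carboxylesterases of the Ces1 group also free retinol from retinyl esters. Of 13 genes of retinoid handling 6 were tested, and 3 rose and 3 fell, with a median of -0.26. Library-size scaling gave 2 and 3. The retinol dehydrogenase gene Rdh10 (-0.92) and Aldh1a1, which makes retinoic acid (-0.76), fell. Cyp26b1, which degrades retinoic acid, rose from 84.1 ± 12.7 to 131.1 ± 6.52 CPM (SD, n = 3 each, edgeR adjusted p = 0.00602), Dhrs3 by 0.26 and Dgat1 by 0.24. The call of Dgat1 was lost with library-size scaling (adjusted p = 0.111).

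Carboxylesterases are kept in the endoplasmic reticulum by receptors for their tail sequence. All 4 genes listed for this and for glucuronidase rose (median 0.41), where 33.6% of all tested genes were higher. The receptor genes Kdelr3 (0.93), Kdelr2 (0.53) and Kdelr1 (0.16) were higher, the last not with library-size scaling (edgeR adjusted p = 0.555) or on the log2(FPKM + 1) scale without a filter (0.0905). Exons of Kdelr3 overlap those of the opposite-strand gene Ddx17 over 4 bp. Gusb, β-glucuronidase, the partner of Ces1e and the enzyme that can remove the glucuronic acid from compounds such as baicalin, stood at 70.4, 70.9 and 67.6 CPM in DMSO. It stood at 87.1, 84.8 and 83.5 CPM in baicalin, a rise of 1.22-fold (adjusted p = 7.06e-07), while its partner Ces1e had 7 reads in all.

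**Figure D4:**
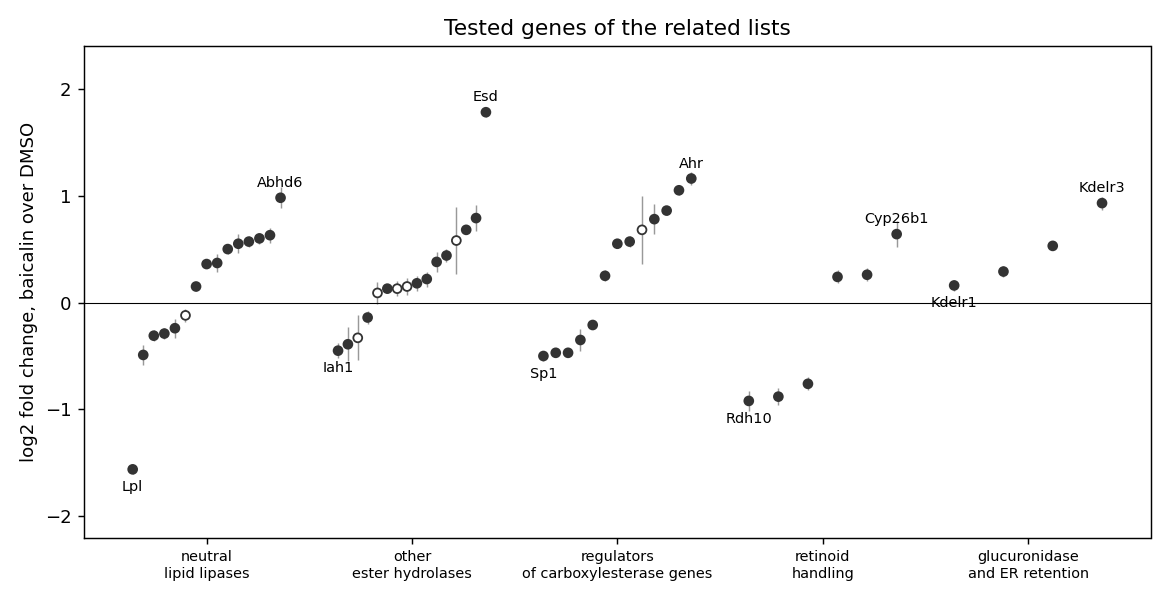
Log2 fold change, baicalin over DMSO, of the tested genes in 5 related lists, each point 1 gene with 1 SE and filled where it passed the test. The lowest and highest gene of each list are named. Lipg, which has no DMSO read, is left out. Esd is the highest point at 1.78 and Lpl the lowest at -1.56.

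The genes with profiles most like the followed ones were sought among 12554 genes with a mean of at least 1 CPM. The measure was the root mean square distance between centred log2(CPM + 0.5) values over the 6 libraries. The added 0.5 damps changes of genes near 1 CPM, so the ranking depends on it. This uses the same contrast and is a description. Nearest to Ces1g were Cyfip2, which binds the fragile X protein, at 0.24, the aldehyde dehydrogenase gene Aldh3a1 at 0.31 and the bradykinin receptor gene Bdkrb2 at 0.35. Their log2 fold changes were 4.73, 4.21 and 4.98, so that none came as close to Ces1g as other genes came to the other members. Near to Ces1f were Rab3c (0.07) and Gclm, a subunit of the rate-limiting enzyme of glutathione synthesis (0.08). Ces1d was closest to 6430550D23Rik (0.11), Gm38190 and the non-coding RNA gene Firre (0.12 each). Exons of 6430550D23Rik overlap the opposite-strand gene Cep250 over 1149 bp, with 240 reads against 3382. Ces2g was closest to the predicted genes Gm11942, Gm11353 and Gm14026 (0.09 each), of which Gm14026 overlapped between the groups.

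The carboxylesterases are best known from hepatocytes and enterocytes, and the labels call the cells adipocytes. All 8 hepatocyte markers and all 5 enterocyte markers stood under 1 CPM in every library, with Fgb and Epcam at 0. Of 9 markers of mature fat cells 4 were under 1 CPM throughout, among them Lep with 2 reads and Slc2a4 with 6 in all. Retn, another of these 4, had 2, 0 and 2 reads without baicalin and 13, 7 and 8 with it, and Cfd had 6, 4 and 5 without and 0 in each library with it. The other 5 were tested and fell, where 34.1% of all tested genes were lower. The summed level of the 9 was 445.9 to 521.5 CPM in DMSO and 312.4 to 325.3 CPM in baicalin, nearly all of it Fabp4, which fell 1.44-fold from a mean of 429.7 CPM. Adipoq had 42, 31 and 17 reads without baicalin and 3, 3 and 1 with it. No baicalin library exceeded the 3-read floor, so its fitted fall of 11.7-fold is imprecise. Cidec fell 9.95-fold, to 7, 11 and 9 reads, Plin1 3.19-fold and Pparg 1.27-fold. Of the 6 fibroblast markers, which summed to 12887.1 to 13404.6 CPM in DMSO and 8891.7 to 9122.5 CPM in baicalin, 5 fell and Thy1 rose. Of 6 macrophage markers 3 were tested, and Cd68 rose 2.12-fold (edgeR adjusted p = 0.00106) while Csf1r and Lyz2 did not pass. Their sum was 4.12 to 4.93 CPM in DMSO and 4.92 to 6.17 CPM in baicalin. All 4 endothelial markers stood under 1 CPM in every library. The fat cell, macrophage and other markers named here were picked after their values were seen. The part of these marker shifts in the carboxylesterase values was not tested.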

How the data were processed

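Poly-A RNA was sequenced from 3 DMSO and 3 baicalin samples, grouped by the treatment label. Per the series design text, the authors counted reads over genes using featureCounts 1.5.0-p3 and deposited raw counts. The build was mm10, per the submitters' processing notes. The same text has the authors dividing by gene length to obtain the deposited FPKM. The aligner, annotation and strandedness were not given in the sources used here.

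The quasi-likelihood test of edgeR 4.0.16 (R 4.3.3) was run on the counts after filterByExpr and TMM scaling (factors 0.945 to 1.05), robustly fitted, with treatment as the only term and Benjamini-Hochberg adjustment over 13728 genes. Alternatives were DESeq2 1.42.0, limma-voom (3.58.1), other scalings and filters, a replicate block, leaving out each library, and limma-trend applied to FPKM on a log2 scale with a pseudocount of 1 or 0.1. Coordinates came from GENCODE M21 because the table has none, and 54495 of 54532 identifiers matched. On simulated counts for 13728 genes the test recovered 93.5% of 200 changed genes, with 10 false calls (5.08% of its calls). The simulation gave every gene the same dispersion and changed far fewer genes than passed in the data. It therefore does not cover so broad a shift. Sequences were handled with Biopython 1.88.

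The members and lists were chosen with earlier results of these data known. Named genes are the 6 members, other carboxylesterases with at least 10 reads, the 4 largest and 2 smallest changes of each list with 8 fixed genes, neighbours past 2-fold or nearest each group, and the 3 closest profiles per member. Genes outside this rule (such as Nr1h4, Aadac, Pon1, Slc6a2, Ces1c and the other carboxylesterases with fewer reads) were named after their values were seen. Some genes that the rule names are not reported here.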

Additional observations from a re-analysis of the deposited data

How the results depend on the processing

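Under the 16 alternatives the fitted members kept their direction. Ces1g ranged from 3.73 to 5.41, Ces1f from 1.30 to 1.64, Ces2g from 0.58 to 0.84 and Ces1d from -1.92 to -0.74 (log2), the smallest sizes of Ces1g, Ces1f and Ces1d being those on the log2(FPKM + 1) scale, whose pseudocount shrinks low genes. The median of the 4 fitted genes was 1.02 with library-size scaling, 0.95 on the log2(FPKM + 1) scale with and without a filter, and between 1.09 and 1.22 when 1 library was left out. Over all genes, library-size scaling moved the median to -0.13, with 3472 genes higher and 5811 lower instead of 4618 and 4676. Ces1a stayed called lower in every alternative (-1.25 to -1.03). Neighbours called numbered 23 of 32 within 500 kb and 78 of 108 within 2 Mb, by construction of the wider or narrower window. Of the named genes only Bphl, which passed in neither fit, changed sign (-0.04 with library-size scaling). Same-numbered libraries of the groups did not deviate together (correlations 0.03, 0.04 and 0.00), so the number was not treated as a pairing. Whether same-numbered libraries were prepared together cannot be told from these values. With the replicate block 4660 genes were higher and 4731 lower, and 48 of the 68 neighbours were called. Ces1e and Ces2e are limited by depth.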
